A study of Mus musculus with 39 samples.

Results

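The 10 genes described here encode the first steps of parathyroid hormone signalling in bone: the local ligand Pthlh, the receptor Pth1r, the stimulatory G protein gene Gnas, the adenylyl cyclases Adcy6 and Adcy9, the protein kinase A (PKA) subunits Prkaca, Prkar1a and Prkar2b, and the beta-arrestins Arrb1 and Arrb2. They were taken by symbol, as a pathway, from the 37583 genes counted in each library. All 10 symbols matched a gene identifier, and 9 of the 10 genes passed the filter on low counts in both experiments. The exception was Pthlh.

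Parathyroid hormone and the related peptide encoded by Pthlh bind the same receptor on cells of the osteoblast lineage. The occupied receptor activates the G protein Gs, Gs activates adenylyl cyclase, and the cyclic AMP that is made releases the catalytic subunits of PKA from their regulatory subunits. Arrestins bind the active receptor, uncouple it from the G protein and take it into the cell. Salt-inducible kinases (Sik genes) lie downstream of PKA, which inhibits them.

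RNA of mouse femur cortical bone was sequenced as single reads in 39 libraries from 2 experiments. The first compared 8 libraries labelled Sik2/3 DKO, from mice in which both kinase genes were to be removed, with 8 labelled WT (for Sik2/3 DKO). The second compared 12 libraries labelled Col1a1-Pth1r H223R, called C1HR below, with 11 labelled WT (for Col1a1-Pth1r H223R). In C1HR mice a type I collagen promoter drives a receptor with the H223R change, which signals without hormone, so the transgene acts in cells that make collagen. The labels give no strain, age or sex, no Cre or other means of deletion for the Sik2/3 mice, and no species for the transgenic receptor. The series' design text speaks of 6 WT animals in the first experiment, where the labels give 8 libraries. It also says that marrow was left in the C1HR bones and their controls, whereas the labels' extraction protocol gives flushing for every sample.

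The label H223R names the residue changed in the transgene, and mouse Pth1r has a histidine there in a reading frame of 591 codons. The coding stretch around it is shown because it is the feature that defines the C1HR receptor. It is read from the NCBIM37 (mm9) reference in the gene's sense, with the histidine codon in capitals, and it spans an exon junction:
Pth1r: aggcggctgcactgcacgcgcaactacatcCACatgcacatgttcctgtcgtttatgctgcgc
The codon sits at chr9:110629639-110629641 on the minus strand, in exon 7 of 14. This is reference sequence: the deposited counts hold no bases, so the transgene's own letters cannot be read from them.

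RefSeq promoter windows on GRCm38.p6 were found for 7 of the 10 genes, with 19 windows in all, and each was searched on both strands for the cyclic AMP response element TGACGTCA and its core TGACG, which the whole element holds on either strand. The element is the DNA sequence bound by CREB, the transcription factor that PKA phosphorylates. Of the 19 windows of 250 bases before a start site, 9 held the core and 1 held the whole element. Among all 32536 such windows of the table, 17.9% held the core and 1.555% the whole element. Windows of a gene can overlap, and those of Gnas and Prkar1a share sites, so the 9 windows hold fewer distinct sites and are not set against these shares. The sites below are shown with the motif in capitals: the whole element of Prkar1a, and the core alone of 3 other genes for comparison with it:
Prkar1a: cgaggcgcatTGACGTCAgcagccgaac
Adcy9: gacccggcggTGACGtgcgcgggcc
Prkaca: ctgcaactcgCGTCActcatccagg
Pth1r: gggcgaggggCGTCAactgaggcag
The Prkar1a site lies at chr11:109650890-109650917, with the motif starting at position -49 from an annotated start on the plus strand. The Adcy9 site is at chr16:4420508-4420532 (position -24, minus strand), the Prkaca site at chr8:83972848-83972872 (position -120, plus strand) and the Pth1r site at chr9:110747292-110747316 (position -161, minus strand). The last 2 hold the core on the opposite strand. Further copies of the core in windows of Gnas, Prkaca and Prkar1a are not printed, and neither of the 2 Prkar2b windows held one. These matches describe letters in a window and were not linked to binding.

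Between 22122742 and 23306853 reads were assigned to genes in the DKO libraries, 20324595 to 24922490 in their WT libraries, 14909609 to 16370874 in C1HR and 11444686 to 13475805 in its WT libraries. Levels are given as CPM, the reads of a gene relative to the size of its library, scaled by the TMM method within each experiment, so levels of the 2 experiments are not on one scale. A gene is called higher or lower at a Benjamini-Hochberg adjusted p under 0.05 in edgeR's quasi-likelihood test over all genes. The labels do not say that libraries come from separate animals, so p-values measure the spread between these samples. Over whole genes, Sik2 had a log2 fold change of 0.64 (SE 0.140) and Sik3 of -0.21 (SE 0.144) in DKO, so these counts show no loss of either gene and the groups are taken from the labels.

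Markers of other cell types differed between groups, as the design text itself allows for, and 4 libraries stood apart. Markers of erythroid (9 of 10), granulocyte (10 of 11), B lineage (10 of 10) and megakaryocyte (10 of 10) cells were called higher in DKO, and 8 of 8 osteoclast markers lower. In C1HR the osteoblast (9 of 9) and osteoclast (8 of 8) markers were higher and the erythroid (10 of 10), granulocyte (11 of 11), B lineage (9 of 10) and megakaryocyte (10 of 10) markers lower. Every marker of these lists was detected in every group, and the osteoblast markers summed to 53207 CPM or more in every library. WT 5 and WT 6 of the Sik2/3 experiment had megakaryocyte marker sums of 1377 and 842 CPM, against 60.95 to 144 CPM in the other 6 WT libraries and 1091 to 2666 CPM in DKO. WT 6 also had the highest skeletal muscle marker sum, at 29596 CPM. C1HR 8 and C1HR 9 had 363 and 327 CPM, against 32.62 to 103 CPM in the other 10 C1HR libraries and 1457 to 3171 CPM in WT. In bulk bone, fewer cells of a type and less RNA per cell cannot be told apart.

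Of the 9 genes tested in DKO, 3 rose (Prkar2b, Arrb1 and Arrb2), 3 fell (Pth1r, Prkaca and Prkar1a) and 3 were not called (Gnas, Adcy6 and Adcy9). Over all 15479 genes tested, 55% were called, 24.1% higher and 30.9% lower. In C1HR, 4 rose (Pth1r, Gnas, Adcy9 and Prkar1a), 3 fell (Prkar2b, Arrb1 and Arrb2) and 2 were not called (Adcy6 and Prkaca), where 84.3% of 13976 genes were called, 43.7% higher and 40.6% lower. Both counts of members are near these backgrounds. The median log2 fold change of the 9 genes was 0.16 in DKO, against -0.09 for all genes, and 0.08 in C1HR, against 0.05. In a fit of both experiments, the change in DKO minus that in C1HR was called for 7 of 9, 3 above 0 and 4 below, where 80.2% of 15387 genes were called, 38.1% above 0 and 42% below. Past 2-fold as well, 2 genes were higher (Prkar2b and Arrb2) and 1 lower (Pth1r) in DKO, where 10.7% and 6.76% of all genes were. In C1HR 1 was higher (Pth1r) and 3 lower (Prkar2b, Arrb1 and Arrb2), against 22.1% and 16.8%. For the difference, 3 lay above 0 and 1 below past 2-fold, against 23.9% and 28.9%. The 3 genes that rose in DKO all fell in C1HR, and Pth1r and Prkar1a fell in DKO and rose in C1HR. Calls in opposite directions were common: 47.2% of the 13821 genes tested in both experiments had them.

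**Figure D1:**
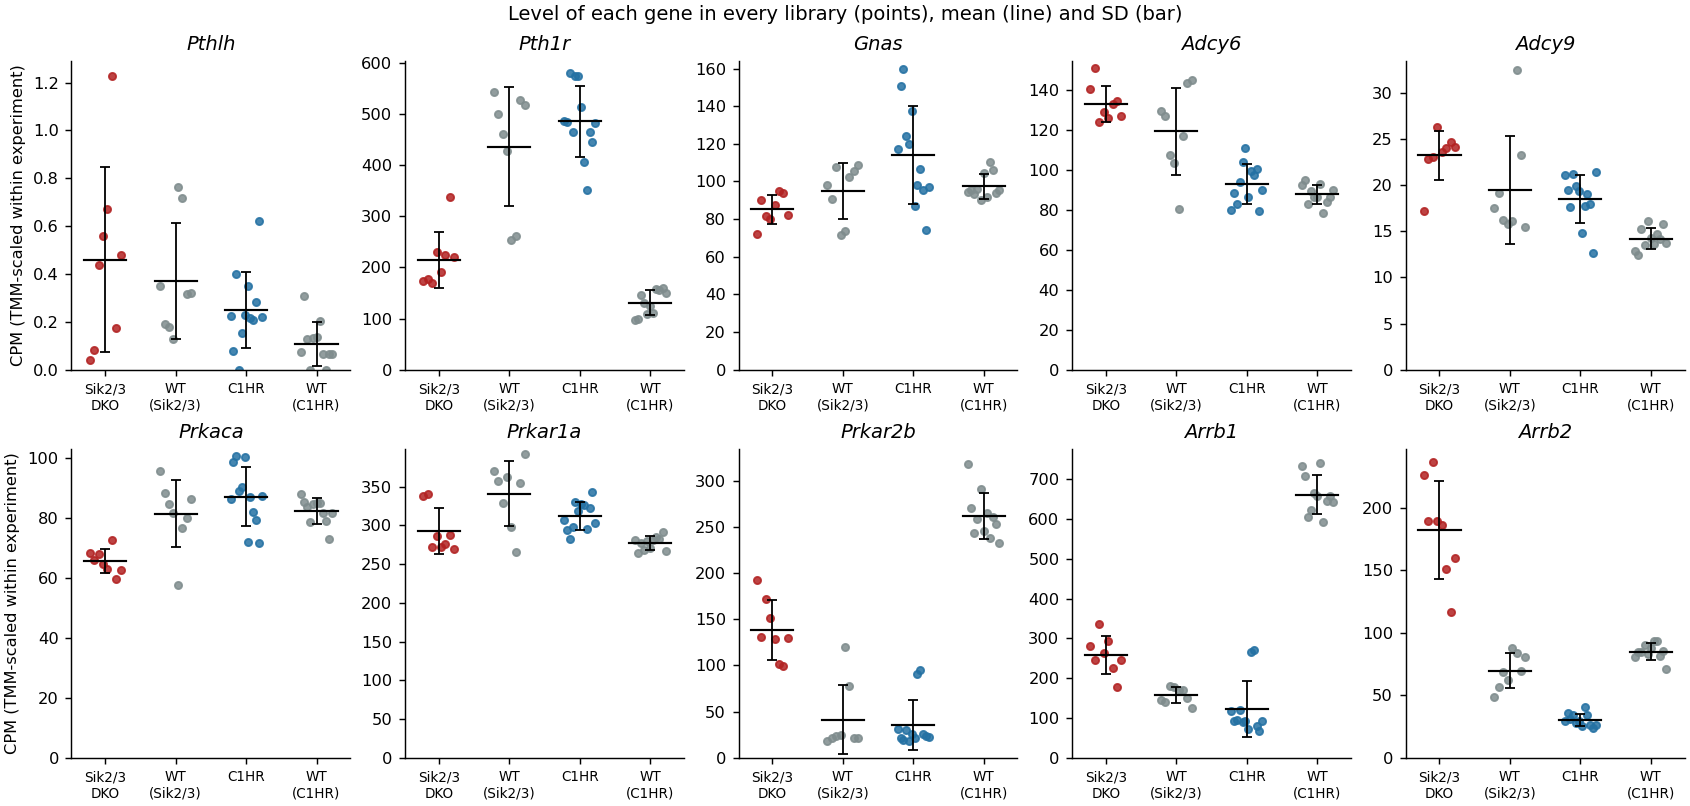
CPM (vertical axes from 0, TMM-scaled within each experiment) of each gene in the 39 libraries (points), with the mean (line) and SD (bar) of each group. Each mutant set against its own WT group, Pth1r is lower in DKO and higher in C1HR, and Prkar2b and both arrestins show the opposite order. In Prkar2b, 2 WT libraries of the first experiment and 2 C1HR libraries lie away from their groups.

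Pthlh, the local ligand, was close to the limit of detection. Its counts ran from 1 to 29 in DKO, 3 to 17 in the WT group of DKO, 0 to 9 in C1HR and 0 to 4 in the WT group of C1HR. It was at 0 in 1 C1HR library and 2 WT libraries, where a count of 0 allows up to 3 reads by counting error alone. It was filtered out before testing in both experiments. Pth, which encodes the hormone itself and is made in the parathyroid gland, had no read in any library.

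Pth1r, the receptor, moved in opposite directions in the mutants. In DKO its level had a lowest, median and highest value of 170, 205 and 337 CPM, against 253, 481 and 544 CPM in WT. All 8 DKO libraries lay below the WT mean, but the groups overlapped: DKO 7, the highest, lay above WT 5 (253 CPM) and WT 6 (261 CPM), which were the lowest WT libraries. The fall was 2.03-fold (log2 fold change -1.02, SE 0.186, edgeR adjusted p = 0.000326). Without WT 5 and WT 6 the log2 fold change was -1.17 (edgeR adjusted p = 4.87e-06). In C1HR the values were 351, 484 and 580 CPM, against 97.69, 130 and 160 CPM in WT, with no overlap. The rise was 3.71-fold (1.89, SE 0.102, edgeR adjusted p = 8.68e-15). Counts per gene do not separate reads of a transgene from those of the endogenous gene, and how far a transgene contributes was not tested. The difference between the 2 changes was -2.85 (SE 0.204, adjusted p = 2.61e-15).

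The median of the osteoblast markers moved in the direction of Pth1r in both experiments. Their median log2 fold change was -0.51 in DKO, where 3 of 9 were called lower, and 1.85 in C1HR. Osteoclast markers also moved in that direction, with medians of -2.0 in DKO and 1.68 in C1HR, as did macrophage markers (-0.37 and 0.87). Endothelial markers had -0.01 and 0.725. Osteocyte markers moved in the direction of Pth1r only in C1HR, with medians of 0.48 in DKO and 2.18 in C1HR. Summed osteoblast markers ran from 70780 to 196314 CPM in DKO and from 80848 to 246851 CPM in WT. They ran from 242869 to 435809 CPM in C1HR and from 53207 to 98115 CPM in its WT group. When the mean levels of erythroid, granulocyte and B lineage markers were added as covariates, Pth1r had -0.13 in DKO (edgeR adjusted p = 0.628) and 1.39 in C1HR (adjusted p = 9.32e-06). These markers differ between the groups themselves, and in C1HR the sums of each of these lists did not overlap those of WT. In neither experiment can their part and that of the genotype be told apart.

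Gnas, which encodes the alpha subunit of Gs, changed little in the reads assigned to it. Its values in DKO were 72.03, 84.99 and 94.71 CPM, against 71.71, 100.3 and 109 CPM in WT, with a log2 fold change of -0.15 (95% interval -0.34 to 0.03, edgeR adjusted p = 0.184). In C1HR they were 74.47, 112 and 159.6 CPM, against 90.01, 95.24 and 110.4 CPM, and the range of C1HR enclosed that of WT. The rise of 1.17-fold (0.23, SE 0.0986, edgeR adjusted p = 0.0361; 8 of 12 C1HR libraries above the WT mean) is close to the threshold. It was not called without C1HR 8 and C1HR 9 (0.14, adjusted p = 0.207), nor when any of 11 of the 23 libraries was left out singly. The difference between the mutants was -0.32 (edgeR adjusted p = 0.0437) and was not called under size-factor scaling (-0.28, adjusted p = 0.0929). An antisense gene, AF085738, lies on the opposite strand and shares 1140 of the 1427 bases of the transcript Gnas-001. Counting ignored strand, so reads there can be tallied as ambiguous and be missing from Gnas, and Gnas is left out of comparisons per length. Its fold changes rest on the remaining reads, and the effect of the missing ones was not tested.

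The adenylyl cyclases Adcy6 and Adcy9, which make cyclic AMP, differed little from their WT groups. Adcy6 had 124, 131 and 151 CPM in DKO against 80.76, 122 and 145.5 CPM in WT, and 79.63, 92.06 and 111 CPM in C1HR against 78.4, 86.8 and 95.24 CPM in WT. Its groups overlapped in both experiments. Its log2 fold changes were 0.16 (95% interval -0.04 to 0.36, edgeR adjusted p = 0.199) and 0.08 (-0.03 to 0.19, adjusted p = 0.179), neither called. The first was called in the fit of all 4 groups (0.20, edgeR adjusted p = 0.0390) and the second under upper-quartile scaling (0.16, edgeR adjusted p = 0.00955). Adcy9 had 17.23, 23.85 and 26.33 CPM in DKO against 15.46, 16.9 and 32.46 CPM in WT, of which WT 6 was the highest. Its log2 fold change there was 0.25 (SE 0.145, edgeR adjusted p = 0.150), and 0.41 (adjusted p = 0.00362) without WT 6. With all libraries kept it was called in limma with quality weights (0.46, adjusted p = 0.000152) and in the edgeR fit of all 4 groups (0.29, adjusted p = 0.0301). In C1HR Adcy9 had 12.66, 19.21 and 21.4 CPM against 12.42, 14.2 and 16.13 CPM, a rise of 1.30-fold (0.38, SE 0.0761, edgeR adjusted p = 5.59e-05; 11 of 12 libraries above the WT mean) with some overlap. The difference between the mutants was not called for Adcy6 (0.14, 95% interval -0.07 to 0.36) or Adcy9 (-0.07, -0.37 to 0.23).

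Prkaca and Prkar1a, the catalytic subunit C-alpha and the regulatory subunit RI-alpha of PKA, shifted by at most 1.24-fold. Prkaca had 59.4, 65.11 and 72.64 CPM in DKO against 57.41, 83.1 and 95.36 CPM in WT. The lowest value of the 16 was that of WT 5, and the other 7 WT libraries lay above all 8 DKO libraries. The fall was 1.24-fold (log2 fold change -0.31, SE 0.0838, edgeR adjusted p = 0.00514). In C1HR the values were 71.37, 87.02 and 100.6 CPM against 72.89, 83.49 and 87.97 CPM (0.08, 95% interval -0.03 to 0.19, edgeR adjusted p = 0.190), and the sign turned to -0.03 without C1HR 8 and C1HR 9. It was called higher under upper-quartile scaling (0.16, edgeR adjusted p = 0.0142) and in limma (0.14, adjusted p = 0.00622). The change in DKO was lower than that in C1HR by a log2 difference of -0.33 (SE 0.0958, adjusted p = 0.00205).

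Prkar1a had 269.5, 281 and 341 CPM in DKO against 265.1, 356 and 392 CPM in WT, with WT 6 the lowest of the 16 and WT 3 and WT 5 within the DKO range. The fall of 1.17-fold (-0.22, SE 0.0890, edgeR adjusted p = 0.0447) was lost when any of 12 of the 16 libraries was left out, under size-factor scaling (-0.16, adjusted p = 0.127) and in DESeq2 (-0.16, adjusted p = 0.0978). In C1HR it had 282, 313 and 343 CPM against 265, 280.4 and 292 CPM, and all 12 libraries lay above the WT mean while the ranges overlapped. This rise of 1.13-fold (0.17, SE 0.0402, edgeR adjusted p = 0.000355) was not called without C1HR 8 and C1HR 9 (0.06, adjusted p = 0.227). The difference between the mutants was -0.33 (SE 0.0876, adjusted p = 0.000879).

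Prkar2b, the regulatory subunit RII-beta, differed widely between libraries. In DKO its lowest, median and highest values were 98.87, 129.9 and 193 CPM, against 17.63, 22.5 and 119 CPM in WT. WT 5 (119 CPM) and WT 6 (78.14 CPM) stood above the other 6 WT libraries, which lay between 17.63 and 25.12 CPM, and only WT 5 reached into the DKO range. The rise was 3.38-fold (log2 fold change 1.76, SE 0.395, edgeR adjusted p = 0.00156). Without WT 5 and WT 6 it was 2.70 on the log2 scale (edgeR adjusted p = 6.2e-09). In C1HR the values were 18.39, 24.18 and 94.59 CPM against 232, 258 and 318 CPM in WT. The groups did not overlap, although C1HR 8 (90.28 CPM) and C1HR 9 (94.60 CPM) stood above the other C1HR libraries. The fall was 7.43-fold (-2.89, SE 0.279, edgeR adjusted p = 1.29e-09), or -3.58 without these 2 libraries. The difference between the mutants was 4.73 (SE 0.480, adjusted p = 2.8e-11), and 6.19 without the 4 libraries.

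Blood cell markers moved with Prkar2b in both experiments and within groups. Megakaryocyte markers had a median log2 fold change of 2.39 in DKO and -4.57 in C1HR, and erythroid markers had 2.74 and -3.74. Granulocyte (2.11 and -3.58), B lineage (2.23 and -2.14) and T and NK cell markers (1.90 and -1.11) moved the same way. Macrophage markers moved the other way (-0.37 and 0.87). WT 5 and WT 6 summed to 5208 and 2408 CPM of erythroid markers, against 91.17 to 305 CPM in the other WT libraries. C1HR 8 and C1HR 9 summed to 12781 and 10178 CPM, against 448 to 2136 CPM in the other C1HR libraries. With the erythroid, granulocyte and B lineage marker levels as covariates, Prkar2b had 0.22 in DKO (edgeR adjusted p = 0.492) and -1.07 in C1HR (adjusted p = 0.000592).

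The arrestin genes Arrb1 and Arrb2 rose in DKO and fell in C1HR. Arrb1, which encodes beta-arrestin 1, had 178, 255 and 336 CPM in DKO against 125, 161 and 181 CPM in WT, and only the lowest DKO library lay within the WT range. It rose 1.64-fold (log2 fold change 0.71, SE 0.116, edgeR adjusted p = 0.000142). In C1HR it had 67.93, 93.49 and 271 CPM against 594, 659 and 742 CPM, with no overlap. C1HR 8 (266 CPM) and C1HR 9 (271 CPM) were again the highest of their group. Arrb1 fell 5.44-fold (-2.44, SE 0.215, edgeR adjusted p = 2.01e-10), or -2.96 on the log2 scale without C1HR 8 and C1HR 9.

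Arrb2, which encodes beta-arrestin 2, had 117, 188 and 236 CPM in DKO against 48.95, 69.09 and 87.94 CPM in WT, and was the one member whose groups did not overlap in the Sik2/3 experiment. Of all genes tested there, 10% had groups that did not overlap, 5.96% higher and 4.08% lower. It rose 2.61-fold (1.38, SE 0.148, edgeR adjusted p = 1.23e-05). In C1HR it had 24.09, 29.3 and 40.38 CPM against 70.79, 84.46 and 93.63 CPM, again without overlap. It fell 2.80-fold (-1.49, SE 0.0758, edgeR adjusted p = 3.23e-15). In that experiment Pth1r, Prkar2b, Arrb1 and Arrb2, 4 of the 9 tested, had groups that did not overlap, as did 52.8% of all genes tested, 27.8% higher and 24.9% lower.

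Differences between the mutants were 3.23 (SE 0.266) for Arrb1 and 2.94 (SE 0.151) for Arrb2, with edgeR adjusted p = 9.47e-14 and 2.01e-18. Granulocyte markers had a median log2 fold change of 2.11 in DKO and -3.58 in C1HR. Erythroid (2.74 and -3.74), megakaryocyte (2.39 and -4.57), B lineage (2.23 and -2.14) and T and NK cell markers (1.90 and -1.11) moved the same way. Macrophage markers moved the other way (-0.37 and 0.87). With the blood cell marker covariates most calls over all genes in DKO were lost. Arrb2 was then the only tested member called in DKO (0.77, edgeR adjusted p = 0.0147), where Arrb1 had 0.49 (adjusted p = 0.0755). In C1HR both were called with these covariates, Arrb1 at -0.94 (adjusted p = 0.00217) and Arrb2 at -0.92 (adjusted p = 3.8e-05).

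**Figure D2:**
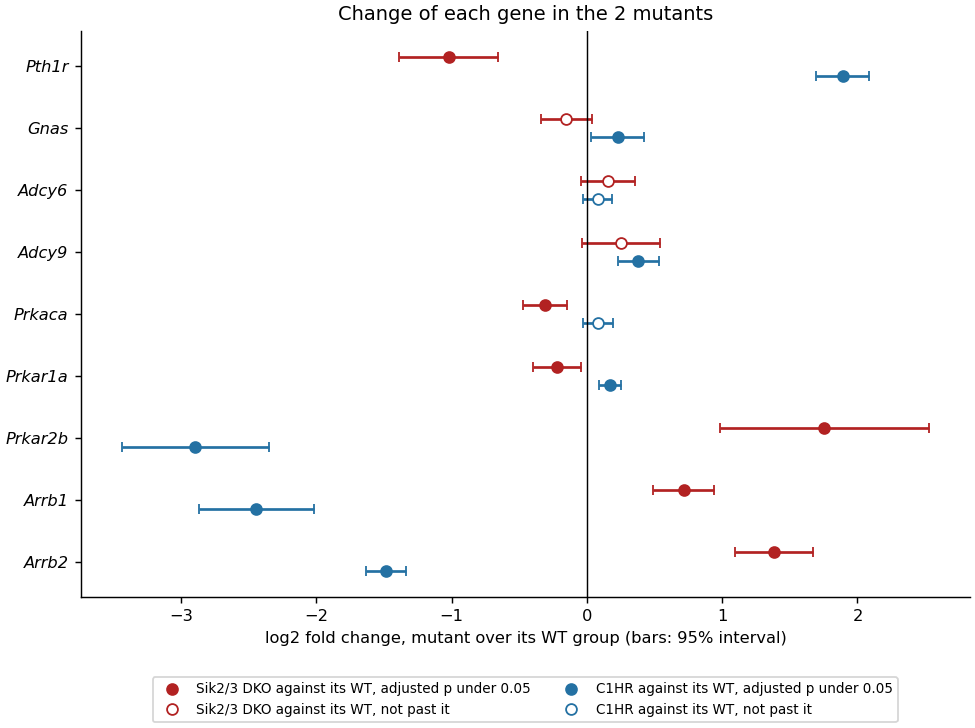
Log2 fold change of the 9 tested genes in DKO (red) and C1HR (blue) against their own WT groups, with bars for the 95% interval and filled points for an adjusted p under 0.05. Prkar2b, Arrb1 and Arrb2 lie to the right in DKO and to the left in C1HR, Pth1r the other way round, and the other 5 genes lie between -0.31 and 0.38.

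Ratios of related genes within a library do not depend on how libraries are scaled, and 4 ratios were compared in each experiment, 8 tests in all, by two-sided permutation of the libraries. The ratio of Arrb2 to Arrb1, per length, had a lowest, median and highest value of 2.50, 2.71 and 3.15 in DKO against 1.33, 1.69 and 2.54 in WT. It was 1.60-fold higher in DKO (exact permutation p = 0.000311, adjusted p = 0.000622) with a slight overlap. In C1HR it was 0.494, 1.22 and 1.49 against 0.432, 0.493 and 0.619, 2.14-fold higher (permutation p = 2e-05, the smallest that 100000 resamples can give, adjusted p = 5.33e-05). Both mutants had a higher share of Arrb2, in DKO with both genes up and in C1HR with both down. C1HR 8 and C1HR 9 were the lowest of their group in this ratio, and without them the log2 difference was 1.30 in place of 1.10.

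The ratio of Prkar2b to Prkar1a, the 2 regulatory subunits, was 0.433, 0.601 and 0.799 per length in DKO against 0.06004, 0.08126 and 0.505 in WT, 5.00-fold higher (exact permutation p = 0.000622, adjusted p = 0.000995). In C1HR it was 0.07021, 0.0952 and 0.403 against 1.05, 1.16 and 1.43, 9.95-fold lower and without overlap (permutation adjusted p = 5.33e-05). Prkar2b was thus more abundant per length than Prkar1a in each WT library of the C1HR experiment and less abundant in every library of the other groups. The ratio of the catalytic subunits Prkaca to Prkacb was 1.37-fold lower in C1HR (1.88, 1.97 and 2.15 per length against 2.39, 2.63 and 3.25, without overlap, permutation adjusted p = 5.33e-05). In DKO it was 1.10-fold lower with overlapping groups (exact permutation p = 0.0755, adjusted p = 0.0863), and the log2 difference of -0.14 became -0.18 without WT 5 (exact permutation adjusted p = 0.0107).

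The ratio of Adcy9 to Adcy6 was 1.23-fold higher in C1HR (0.184, 0.224 and 0.306 per length against 0.151, 0.191 and 0.217, permutation adjusted p = 0.00304). In DKO the 2 groups overlapped (0.142, 0.214 and 0.236 against 0.123, 0.176 and 0.321, exact permutation p = 0.525, adjusted p = 0.525). Without WT 5 and WT 6 the log2 difference there rose from 0.11 to 0.29 (exact permutation adjusted p = 0.0433).

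**Figure D3:**
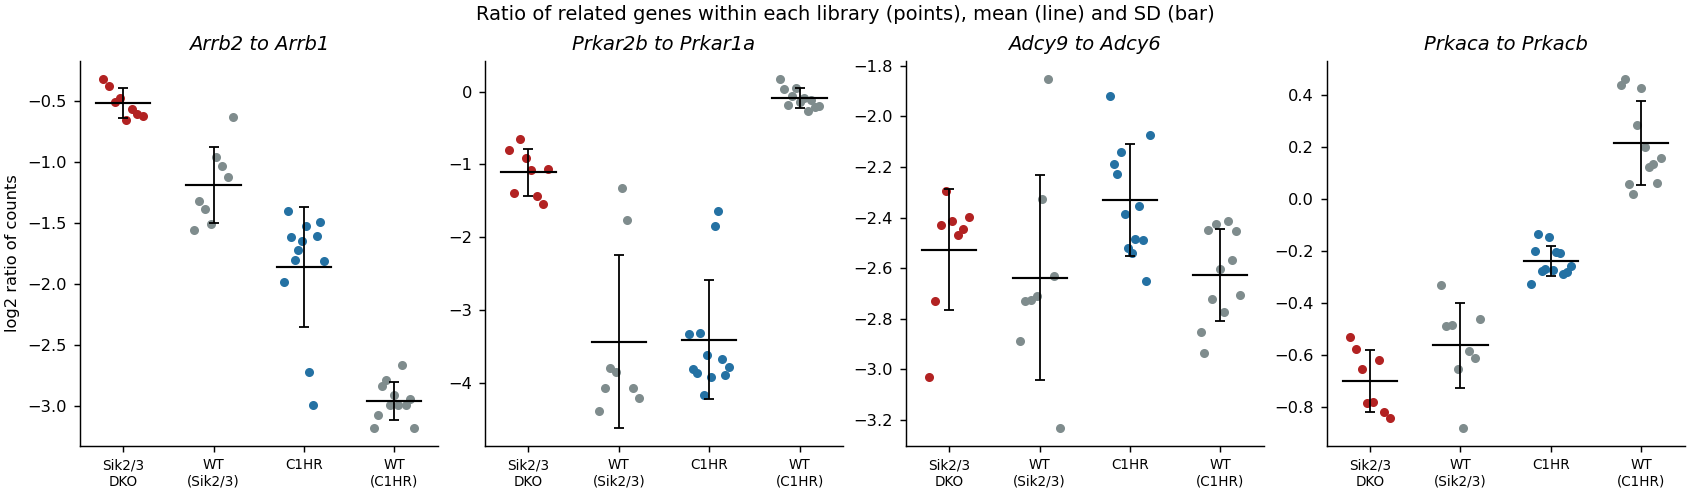
Log2 ratio of the counts of 2 related genes in each of the 39 libraries (points), with the mean (line) and SD (bar) of each group. In Prkar2b to Prkar1a, WT 5 and WT 6 lie near the DKO libraries, and all WT libraries of the C1HR experiment lie above all C1HR libraries.

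Each gene was also set against its family, as a share of the summed CPM per kilobase of exon. Adcy6 had the highest median share of the adenylyl cyclases in DKO (36.3%) and in the WT group of C1HR (37.9%), and came after Adcy3 in the WT group of DKO (28%) and in C1HR (28%). The share of Adcy3, a calmodulin-stimulated cyclase, was 13.3% in DKO and 41.9% in its WT group, and 38.1% in C1HR and 18.5% in its WT group. Adcy9 held between 4.39% and 7.67% in the 4 groups. Among the PKA regulatory subunits, Prkar1a had the highest median share in DKO (55.3%), its WT group (73.4%) and C1HR (72.4%), and Prkar2b in the WT group of C1HR (49.3%, against 42.5% for Prkar1a). Prkar2b held 33.2% in DKO, 5.97% in its WT group and 7.07% in C1HR. Arrb2 held 73%, 62.8%, 55% and 33% of the beta-arrestin total in DKO, its WT group, C1HR and its WT group.

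The 2 WT groups thus differed from each other in these shares, as they did in blood cell markers: summed erythroid markers had a median of 231 CPM in the WT group of DKO and 34366 CPM in that of C1HR. The sources disagree on the marrow step of the second experiment, and the part of marrow in these level differences was not tested.

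**Figure D4:**
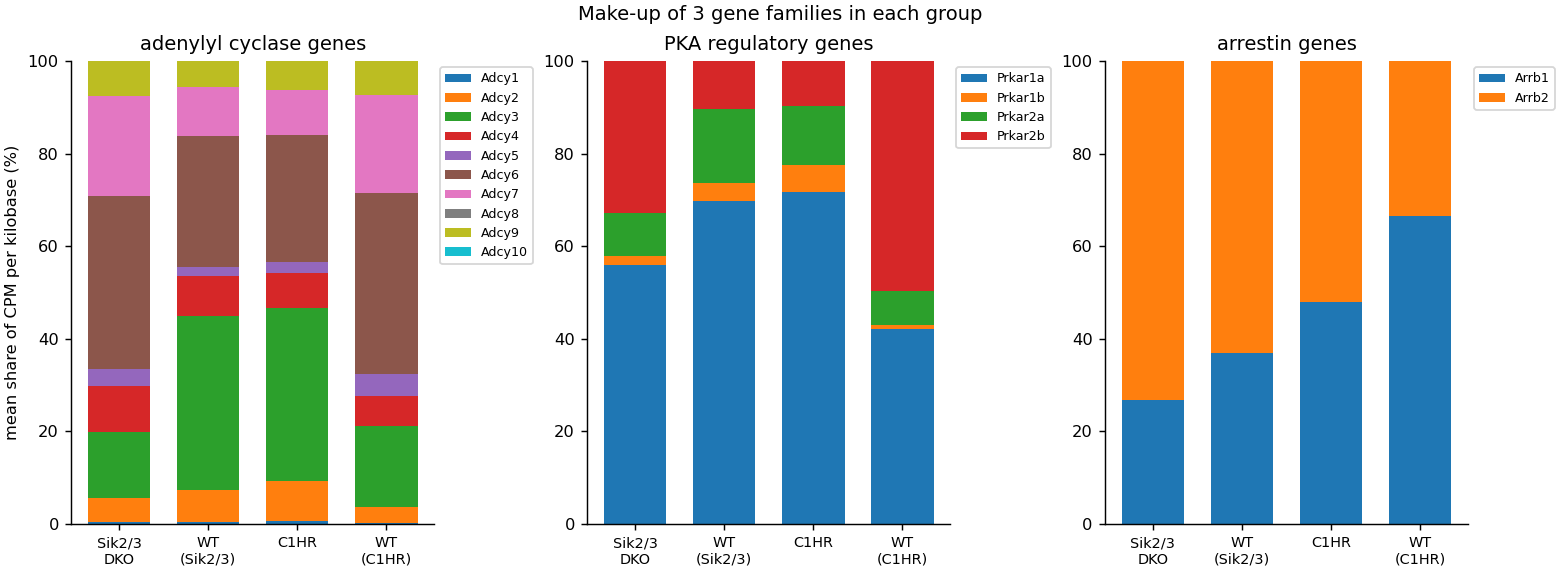
Mean share (%) of each gene in the summed CPM per kilobase of 3 families, by group. Prkar2b (red, middle panel) is a small part in the WT group of DKO and in C1HR and about as large as Prkar1a in the WT group of C1HR, and Adcy3 (green, left panel) is a larger part in the WT group of DKO and in C1HR than in the other groups.

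Around the 10 genes, 76 other genes of the pathway in 7 lists were examined. In DKO 68 could be tested, of which 24 were called higher and 21 lower (66.2% in all, against 55% of all genes), with a median log2 fold change of -0.06 against -0.09 for all genes. In C1HR 67 could be tested, of which 33 were higher and 30 lower (94% in all, against 84.3% of all genes), with a median of 0.09 against 0.05. Of the 76, 21 were higher in DKO and lower in C1HR, 19 were lower in DKO and higher in C1HR, 2 were higher in both and 2 were lower in both. The opposite calls were 59.7% of the 67 genes tested in both, against 47.2% of all genes, a difference that was not tested. The lists below give, for each named gene, the log2 fold change in DKO and then in C1HR, with the calls of the main fit. Some of these calls were each lost under 1 alternative other than leaving out 1 library. In DKO these were Calcr, Adora2a, Ptger4, Gnao1, Gna11, Gnb4, Gnb5, Adcy2, Adcy3, Adcy7, Akap13, Ep300 and Atf1. In C1HR they were Adora2a, Gnb4, Adcy7, Akap13 and Ep300. The DKO changes of Prkar1b, Rapgef3 and Rapgef4 turned sign with the blood cell marker covariates, under which most calls over all genes in DKO were lost.

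Among the other receptors and their partners, 5 of 10 tested genes rose and 2 fell in DKO, and 4 rose and 5 fell in C1HR. Calcr, the calcitonin receptor of osteoclasts, had -1.29 (SE 0.246) and 2.34 (SE 0.141). Adora2a, an adenosine receptor that couples to Gs, had 1.44 (SE 0.276) and -0.49 (SE 0.123), and Ptger4, a prostaglandin E2 receptor that also couples to Gs, had 0.41 (SE 0.147) and -0.76 (SE 0.0710). All 6 changes were called, though that of Ptger4 in DKO was lost in 2 of 16 fits that each left out 1 library.

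Of 16 G protein genes tested, 2 rose and 6 fell in DKO, and 10 rose and 4 fell in C1HR. Gnao1, an alpha subunit of the inhibitory class, had -0.999 (SE 0.174) and 2.94 (SE 0.200). Gna11, whose product couples receptors to phospholipase C, had -0.56 (SE 0.126) and 1.35 (SE 0.0628). The beta subunits Gnb4 and Gnb5 had -0.73 (SE 0.131) and -0.83 (SE 0.174) in DKO, and 0.67 (SE 0.0702) and 1.78 (SE 0.0877) in C1HR. All 8 changes were called.

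Beyond Adcy6 and Adcy9, 6 adenylyl cyclases could be tested, with 2 higher and 2 lower in DKO and 4 higher and 2 lower in C1HR. Adcy3 had -1.73 (SE 0.274) and 1.70 (SE 0.106), Adcy2 had -0.61 (SE 0.137) and 1.93 (SE 0.108), and Adcy7 had 0.84 (SE 0.135) and -0.55 (SE 0.0595), all called. Of 6 further PKA genes, 1 rose and 3 fell in DKO, and 4 rose and 1 fell in C1HR. Prkar1b, the RI-beta subunit, had -0.999 (SE 0.220) and 1.87 (SE 0.0929), and Prkar2a, the RII-alpha subunit, had -0.69 (SE 0.106) and 0.21 (SE 0.0614). Prkacb, the C-beta catalytic subunit, had -0.16 (SE 0.0533) and 0.53 (SE 0.0564). The DKO change of Prkacb was not called under 5 of 9 alternatives other than leaving out 1 library, nor the C1HR change of Prkar2a under 2 of 9. Prkar2b was the only regulatory subunit gene called higher in DKO and lower in C1HR: the other 3 were called lower and higher. The PKA inhibitor gene Pkig fell in C1HR (-1.15, SE 0.0808) and had 0.11 in DKO, which was not called.

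Among 10 A-kinase anchoring protein genes, whose products hold PKA at places in the cell, 5 rose and 3 fell in DKO and 4 rose and 6 fell in C1HR. Akap6 had -1.58 (SE 0.180) and 1.62 (SE 0.122), and Akap13 had 0.65 (SE 0.147) and -0.71 (SE 0.0895), all called. Akap9 rose in C1HR (1.37, SE 0.122) and had -0.16 in DKO, which was not called.

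In the list of receptor kinases, arrestin relatives and scaffolds, 6 of 12 tested genes rose and 3 fell in DKO, and 4 of 11 rose and 7 fell in C1HR. Adrbk1 (Grk2), the kinase that marks active receptors for arrestin, had 1.03 (SE 0.112) and -1.17 (SE 0.0844). Slc9a3r1 (NHERF1), a scaffold that binds the tail of the receptor, had 1.57 (SE 0.159) and -1.06 (SE 0.0565). Both followed the direction of Arrb1 and Arrb2, and their groups did not overlap in either experiment. Of all genes tested, 10% had such groups in the Sik2/3 experiment and 52.8% in the other. Of the other receptor kinases, some were called in this direction in both experiments and some in the opposite one. Arrdc4, of the alpha-arrestin family, rose in C1HR (1.63, SE 0.0776) and had -0.35 in DKO, which was not called.

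Of 8 effector and CREB genes, 3 rose and 2 fell in DKO and 3 rose and 5 fell in C1HR. Rapgef3 and Rapgef4, which encode the cyclic AMP sensors Epac1 and Epac2, had -0.28 (SE 0.109) and -0.56 (SE 0.196) in DKO, and 1.80 (SE 0.109) and 2.01 (SE 0.0882) in C1HR. Ep300, a coactivator of CREB, had 0.57 (SE 0.122) and -0.41 (SE 0.0766), and the CREB relative Atf1 had 0.24 (SE 0.0689) and -1.05 (SE 0.0836). All 8 changes were called, but those of the Epac genes in DKO were near the threshold. When 1 of the 16 libraries was left out, Rapgef3 lost its call in 10 fits and Rapgef4 in 2, and Rapgef3 also lost it under 4 other alternatives.

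**Figure D5:**
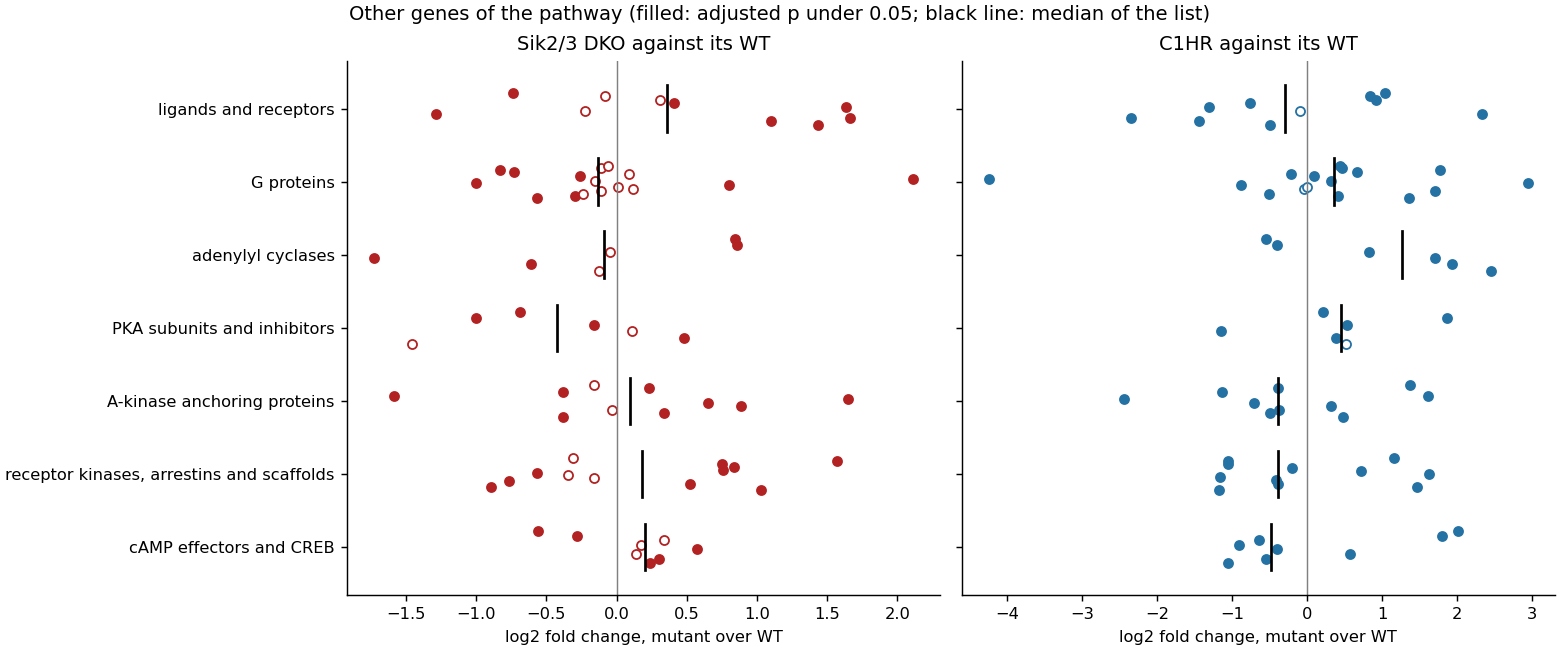
Log2 fold change of the other pathway genes by list, in DKO (left) and C1HR (right, on a wider axis), with filled points for an adjusted p under 0.05 and a black line at the median of each list. Each list holds genes on both sides of 0 in both panels.

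Within groups, correlations between the 9 tested genes ran in both directions. Over the 39 libraries, deviations of log2 CPM from the group means had a Pearson correlation of -0.77 between Pth1r and Prkar2b, -0.58 between Pth1r and Arrb2, 0.72 between Prkar2b and Arrb1 and 0.58 between Arrb1 and Arrb2. Without the 4 libraries that stand apart these were -0.63, -0.43, 0.64 and 0.59 over 35 libraries. Prkaca and Gnas had 0.63 and 0.64. Such values describe libraries that share tissue makeup and scaling, and they carry no test.

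Among 11462 other genes with a mean of at least 5 CPM, those most like Pth1r in these deviations were Txndc5 (0.95), Gpc1 (0.94), Sec61a1 (0.94), Bmp1 (0.93) and Sema3b (0.93), with 0.88 to 0.91 over 35 libraries. Among those most like Prkar2b were Rsad2, Car2, Alas2 and Dek, with 0.96 to 0.97 over 39 libraries and 0.73 to 0.81 over 35. Their ranks over the 35 libraries were 9, 5, 41 and 70, so the top place of Alas2 and Dek rests on the 4 libraries that stand apart. Alas2, the first enzyme of heme synthesis in red cells, is also a member of the erythroid marker list. Those most like Arrb2 were G6pdx (0.88), Alox5 (0.87), Zyx (0.86), Tmem8 (0.86) and Diap1 (0.85). Alox5 encodes the leukotriene enzyme of myeloid cells. Among those most like Gnas were Klf2 (0.82), Sdc3 (0.77), Ddr1 (0.76) and Zfp36l1 (0.76).

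On NCBIM37 (mm9), the 10 genes lie on 9 chromosomes. Pth1r spans chr9:110624592-110649649, Gnas chr2:174109821-174172245, Prkar2b chr12:32643341-32746161, Arrb1 chr7:106683976-106755281 and Arrb2 chr11:70246137-70254330. The exons of Gnas overlap those of other annotated genes, and those of the other 9 genes do not. The protein-coding transcripts of the 10 genes share no stretch of 50 bases, the read length, with those of other genes in the same sense. Other transcripts and the opposite strand, where AF085738 overlaps Gnas, were not searched.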

How the data were processed

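The deposited files hold raw read counts per Ensembl gene, 1 file per library. Per the design text, the authors aligned single reads of 50 bases to mm9 with STAR and counted them with HTSeq 0.6.0, without strand per the files. That text calls the values CPM, but the values are whole counts with unequal totals. The STAR version and the annotation release are not given in the sources used here.

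CPM, log2 fold changes and tests were computed from these counts for 39 libraries. Genes were filtered with filterByExpr (minimum count 10, minimum total 15), scaled by TMM and tested per experiment with edgeR 4.0.16 (robust quasi-likelihood F-test, R 4.3.3), with Benjamini-Hochberg adjustment over all genes and calls at an adjusted p under 0.05. The SE is the log2 fold change divided by the root of F. The difference of the effects was fitted over all 4 groups. Ratios had 0.5 added to each count. Permutation tests of the ratios were two-sided, exact for 8 against 8 and with 100000 resamples for 12 against 11, in Python 3.11.15. Gene symbols, exon lengths and coordinates came from GENCODE vM1 on NCBIM37, which matched 37168 of 37583 identifiers. Promoter windows came from RefSeq on GRCm38.p6. HTSeq's 5 tallies of unassigned reads were left out.

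Genes outside the 10 were named by rule: from each pathway list up to 2 called genes per comparison with the smallest p, the genes of the ratios, and the 5 genes most like Pth1r, Prkar2b, Arrb2 and Gnas, of which 2 are not reported here. The members and lists were chosen with earlier results of these data known. Alternatives were other scalings, DESeq2 1.42.0, limma 3.58.1 (voom with quality weights), no filter, all 4 groups in 1 fit, a replicate block, blood cell marker covariates and left-out libraries. The procedure was tested on simulated counts. No libraries were identical, and replicates differed by more than sampling noise.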

Additional observations from a re-analysis of the deposited data

Results flagged for a closer look

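In the Sik2/3 experiment, 28 groups of 8 values were examined for a library far from the rest by Dixon's test at the 95% level, which chance passes in about 1 of 20 groups. Pth1r was highest in DKO 7, at 337.2 CPM, the DKO library with the highest osteoblast marker sum (196314 CPM). Adcy9 was lowest in DKO 1, at 17.23 CPM, and highest among the WT libraries in WT 6, at 32.46 CPM. DKO 1 had the highest erythroid (12591 CPM) and megakaryocyte (2666 CPM) marker sums of its group. The part of these marker levels in the 3 values was not tested.

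For 7 genes the change in DKO differed from that in C1HR by edgeR's test of the difference itself. The difference of the log2 fold changes was -2.85 for Pth1r, -0.32 for Gnas, -0.33 for Prkaca, -0.33 for Prkar1a, 4.73 for Prkar2b, 3.23 for Arrb1 and 2.94 for Arrb2. The Gnas difference (adjusted p = 0.0437) was not called under size-factor scaling (-0.28, edgeR adjusted p = 0.0929). The 2 experiments also differ in depth and in WT levels, which cannot be told apart from the genotypes in this difference, and the sources disagree on the marrow step of the second.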

How the results depend on the processing

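Pth1r, Prkar2b, Arrb1 and Arrb2 kept their direction under every alternative run in both comparisons. Their calls held except under the blood cell marker covariates in DKO, where Arrb2 alone was called. With these covariates 2060 of the 15479 genes tested were called in DKO in place of 8514, and 496 of them past 2-fold in place of 2695. Of the 9 members tested, 1 was called in place of 6. In C1HR the covariates left 6350 called genes in place of 11787, and 2576 past 2-fold in place of 5430. Log2 fold changes that turned sign with them in DKO were those of Adcy9 (-0.0159), Prkaca (0.0207), Prkar1a (0.0419), Arrdc4 (0.068), Pkig (-0.0687), Prkar1b (0.11), Rapgef3 (0.21) and Rapgef4 (0.14). For Pth1r and Prkar2b in DKO the fold changes were smaller with these covariates, and the part of the marker levels in this was not tested.

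Without C1HR 8 and C1HR 9, Adcy6 (-0.0533) and Prkaca (-0.0273) turned sign in C1HR, neither called before or after. The Adcy9 difference between mutants was 0.0798 in limma and 0.0446 without the 4 libraries that stand apart, in place of -0.07. Without WT 5 and WT 6, the log2 ratio of Adcy9 to Adcy6 in DKO was 0.29 and that of Prkaca to Prkacb -0.20, both then past the threshold, and the cause was not tested. Leaving out 1 library gave -0.18 to -0.11 for Prkaca to Prkacb. Leaving out 1 library at a time gave 7845 to 9390 called genes in DKO and 11604 to 11821 in C1HR, with 5 to 7 and 6 to 7 members. The C1HR count of members was 5 without C1HR 8 and 9, and 9 under upper-quartile scaling.

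Whether replicate numbers pair the samples is not given by the labels and was not tested. Of same-numbered pairs, 5 of 8 correlated above 0.1 in the Sik2/3 experiment and 4 of 11 in the other. In each experiment 2 libraries correlated best with their own number. With a replicate block, 5 members were called in DKO and 6 in C1HR, Prkar1a (-0.22, edgeR adjusted p = 0.0517) and Gnas (0.21, adjusted p = 0.0590) no longer. The ratio of Prkaca to Prkacb in DKO passed under the block at -0.14 (exact sign-flip permutation, adjusted p = 0.0357). Depth limits Pthlh, which had 29 reads or fewer in every library.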
